A study of Homo sapiens with 9 samples.

Results

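The genes described here encode the proteins of the mitochondrial ribosome. They were chosen by name: rows of the count table whose Ensembl identifier maps to a protein-coding symbol of MRPL or MRPS, digits and at most 1 letter. The rule used no measured value and found 78 members among 60708 genes. All 78 were also among the 20812 genes with enough counts to be tested, so no member was lost to the filter on low counts. The libraries came from MDA-MB-231, a human triple-negative breast cancer cell line. Cells of 3 libraries were given DMSO, the vehicle, and cells of another 3 were given 10 nM pladienolide B (PdB) for 16 h. The last 3 libraries were made after 10 nM PdB for 16 h and then 24 h of recovery. The labels give no time for DMSO, so an effect of time in culture cannot be told apart from that of treatment or recovery. All 9 libraries are of the same unmodified line in the same medium, and the labels do not say whether replicates were separate cultures, so p-values measure only the spread between these libraries, which may be technical. PdB is a macrolide that binds the SF3B1 subunit of the U2 snRNP and blocks recognition of the intron branch point, and the series asks what a transient block of splicing leaves behind in such cells.

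The mitochondrial ribosome sits in the matrix and makes only the few respiratory chain proteins that mitochondrial DNA encodes. Its ribosomal RNAs come from that DNA, while every one of its proteins is encoded in the nucleus, translated in the cytosol and imported. Compared with its bacterial ancestor it has lost RNA and gained protein, so that many subunits are descended from bacterial ones and others are found only in mitochondria. An MRPL protein normally belongs to the large subunit, which forms peptide bonds, and an MRPS protein to the small subunit, which reads the messenger RNA. The names have exceptions: MRPS18A and MRPS30 are large-subunit proteins, and MRPS36 is now known as a component of the 2-oxoglutarate dehydrogenase complex. On that basis 51 members were counted to the large subunit, 26 to the small subunit and 1 to neither. A handful of mitoribosomal proteins carry other names, such as DAP3, and are given separately.

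The 9 libraries held between 56389689 and 67047079 counts each, and members took between 0.350% and 0.404% of them. Each member was therefore read with a mean of 634 to 7686 counts per library (median 2731), so counting error was small for all of them. The oestrogen receptor ESR1 was at 0 in every library, the progesterone receptor PGR at no more than 0.0634 CPM, and HER2 (ERBB2) at 106 CPM in DMSO, where CPM, the unit used throughout, is the count scaled to library size with edgeR's TMM factors. The mesenchymal markers VIM, CD44, AXL and MSN summed to 6916 to 7118 CPM in DMSO, 5346 to 5664 CPM under PdB and 3562 to 3603 CPM at recovery. The 5 luminal epithelial markers summed to 1070 to 1266 CPM in DMSO and 948 to 1118 CPM under PdB. At recovery they summed to 1234 to 1423 CPM. The largest rise under PdB was in GATA3, from 13.5 CPM in DMSO to 45.9 CPM. The largest rise at recovery was in CDH1, from 0.310 CPM in DMSO to 1.29 CPM. Others fell, with the largest falls against DMSO in KRT18 under PdB (log2 change -0.54) and in EPCAM at recovery (-1.13). The 5 leukocyte markers summed to at most 1.65 CPM and the 3 endothelial markers to at most 1.70 CPM in any library. CPM are shares of a library, so a change in RNA per cell cannot be told apart from a change in its composition or in the number of cells behind it. TMM factors averaged below 1 under PdB and above 1 at recovery (0.883 to 1.089 over the libraries).

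The members are scattered over 21 chromosomes of GRCh38 and share no locus. Their level in DMSO, as CPM per kilobase of the principal coding transcript, had a median of 31.0. MRPL12, a protein of the L7/L12 stalk that recruits translation factors, stood highest at 114 ± 5.99 CPM per kilobase (SD, n = 3), beside MRPS24 at 105 ± 2.98. The difference between these neighbours in the order is below 2 SDs of MRPL12. MRPL42 stood lowest at 3.20 ± 0.128 CPM per kilobase, where the annotated principal transcript is 15582 bases long. Under PdB the order changed: MRPS24 led at 202 ± 11.5, followed by MRPL36 at 164 ± 6.52, which had been 18th in DMSO, and MRPL12 was 3rd at 131 ± 5.66 CPM per kilobase. At recovery MRPL12 had dropped to 9th place at 64.2 ± 2.60 CPM per kilobase. Exons of 41 members overlap those of another gene, 16 on the same strand and 29 on the other, and the use of strand in counting is not given in the sources used here. MRPL12 itself shares 701 of its 1028 exonic bases with an overlapping readthrough gene, and MRPS24 shares 606 bases with the readthrough URGCP-MRPS24. Same-strand overlaps with other protein-coding genes cover 608 of 1344 exonic bases of MRPL53 and 1373 of 3663 of MRPL38. They cover 650 of 1817 of MRPS28 and 944 of 2898 of MRPL30. The values of all 6 are thus uncertain wherever they are given. Other members have such overlaps too, among them MRPS17 (583 of 2159 bases), MRPL33 (324 of 1539), MRPL46 (724 of 6432) and MRPL28 (223 of 3042). Their part in the values was not tested.

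Promoters show what some members share in sequence. RefSeq windows of 300 bases (250 before and 50 after the start, GRCh38.p14) were found for 69 of the 78 members. The letters CCGGAAG, the core bound by ETS factors such as GABP, occurred on either strand in 42.0% of members' windows, against 18.4% of the 11130 protein-coding genes tested and 10.3% of all 35116 windows. AANATGGCG, for YY1, occurred in 26.1% of members, against 6.52% of protein-coding genes tested and 3.19% of all windows. For the NRF1 motif the shares were 11.6%, 11.0% and 5.78%, and for GGGGCGG, read by SP1, 43.5%, 50.4% and 30.8%. GABP and NRF1 are the classical activators of nuclear genes for mitochondria. The ETS letters were held by 16 of 33 members that rose under PdB, 10 of 23 that fell and 3 of 13 that were not called, and the differences between these groups were not tested. The 100 bases before the start are shown for 5 members, as examples of windows with and without these letters. MRPS31, MRPS18A and MRPL58 hold the ETS letters there and fell under PdB. MRPL19 and MRPL50 hold none of the 4 motifs in this stretch, and MRPL19 fell while MRPL50 rose (a YY1 and an SP1 match lie elsewhere in the 300 bases of MRPL50). They were taken from the few members whose stretch overlaps no annotated exon, among which no member that rose holds the ETS letters, so they show no relation between letters and direction. Capitals mark matches to any of the 4 motifs on either strand (CCGCCCC is GGGGCGG read on the other strand), each sequence runs 5′ to 3′ towards the start.
MRPS31, chr13:40771191-40771290, minus strand: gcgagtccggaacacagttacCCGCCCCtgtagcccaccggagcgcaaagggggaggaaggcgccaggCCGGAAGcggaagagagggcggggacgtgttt
MRPS18A, chr6:43687792-43687891, minus strand: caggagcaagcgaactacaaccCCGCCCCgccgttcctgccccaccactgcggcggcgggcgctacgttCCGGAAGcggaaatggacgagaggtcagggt
MRPL58, chr17:75012570-75012669, plus strand: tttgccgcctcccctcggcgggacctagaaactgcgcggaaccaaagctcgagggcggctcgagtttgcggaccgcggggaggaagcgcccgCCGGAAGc
MRPL19, chr2:75646683-75646782, plus strand: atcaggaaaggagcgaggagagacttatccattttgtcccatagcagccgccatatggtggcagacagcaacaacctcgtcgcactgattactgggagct
MRPL50, chr9:101398619-101398718, minus strand: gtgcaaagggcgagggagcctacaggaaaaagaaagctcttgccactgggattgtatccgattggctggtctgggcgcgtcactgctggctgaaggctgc
A match describes the letters in a window and is not a bound site.

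Members went in both directions under PdB. After 16 h 38 members had risen and 25 had fallen against DMSO, and 15 were not called. A gene was called when its p-value from edgeR's quasi-likelihood test, adjusted over all genes tested, was below 0.05. By the same rule 70.1% of all genes tested were called, 32% up and 38.2% down. The log2 changes of members ran from -2.47 (MRPL39) to 2.14 (MRPL44), with a median of 0.12 beside -0.11 over all genes tested. Their interquartile range was 0.98, narrower than the 1.78 of all genes. Large changes were few: 12 members changed at least 2-fold, 6 in each direction, where 39.7% of all genes tested did. In 62 of 78 members the 3 PdB libraries did not overlap the 3 DMSO libraries, against 72.5% of all genes. The balance of rises and falls depends on scaling: with plain library totals 28 members rose and 35 fell, the members' median was -0.08 and that of all genes -0.31.

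**Figure D1:**
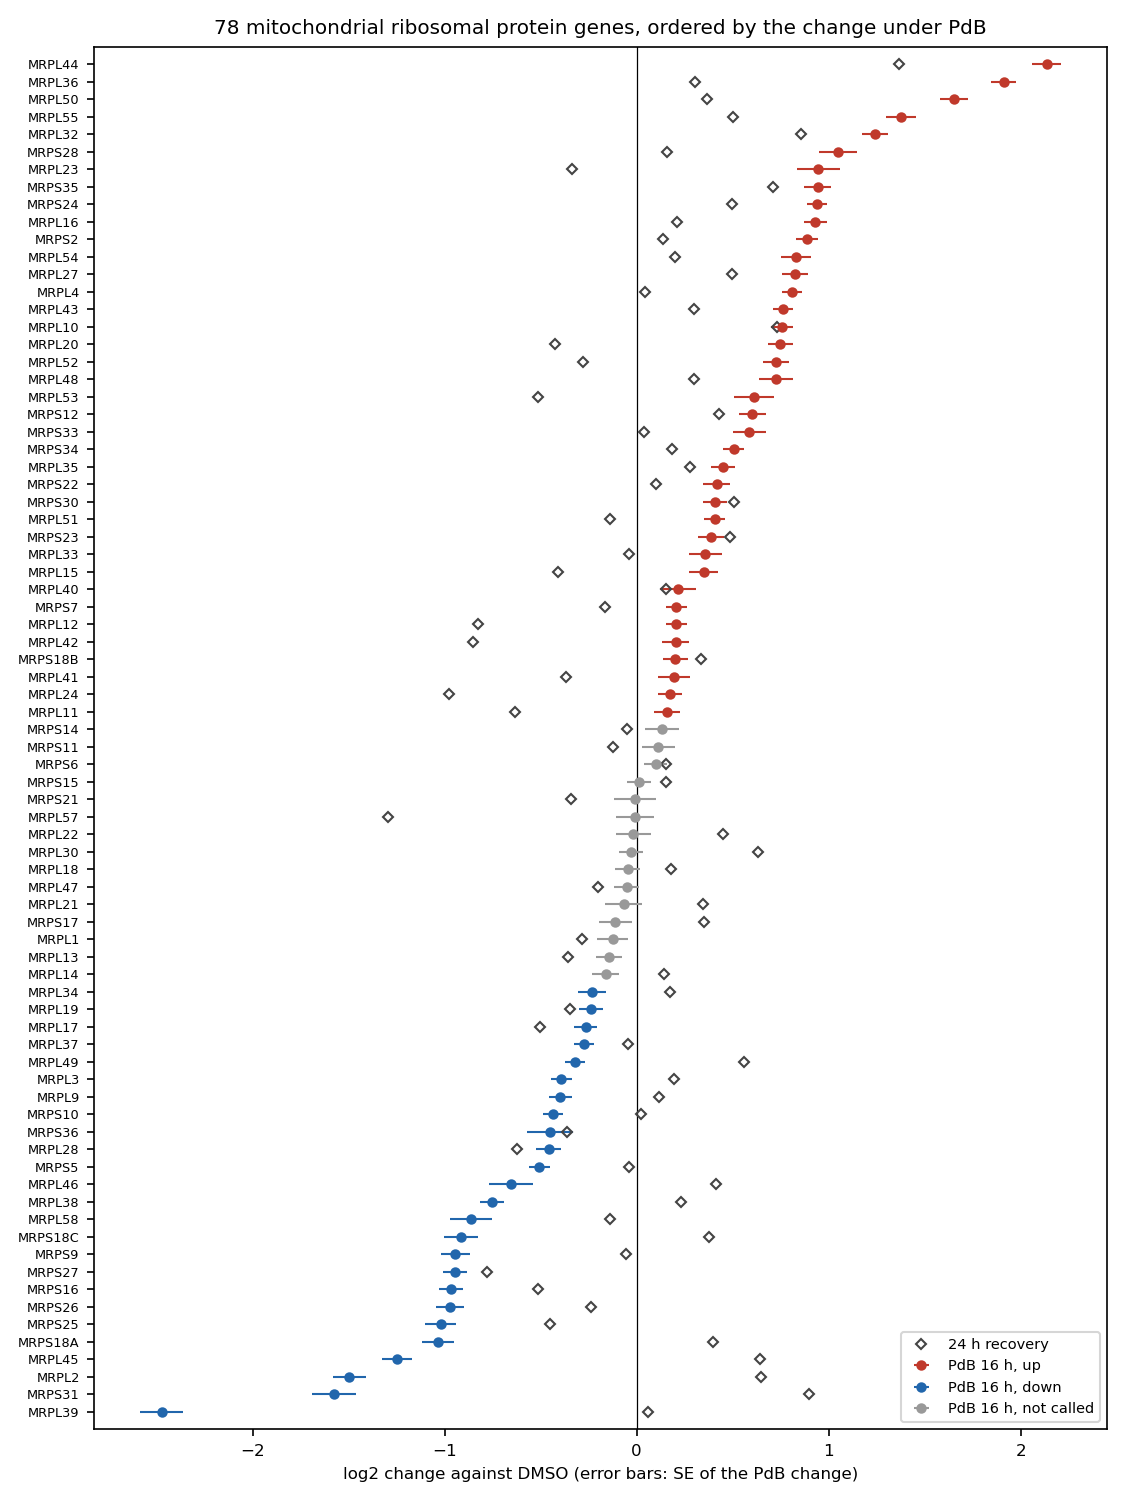
The log2 change of each of the 78 members against DMSO, ordered by the change after 16 h of PdB. Filled points give the PdB change with its standard error (red, risen; blue, fallen; grey, not called), and open diamonds give the change at 24 h of recovery; PdB changes span -2.47 (MRPL39) to 2.14 (MRPL44), while all recovery changes lie between -1.30 (MRPL57) and 1.37 (MRPL44).

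MRPL44 rose the most. Its protein has a ribonuclease III fold and sits near the exit of the peptide tunnel, and its gene lies at chr2:223957404-223967714. It was read at 18.8, 20.1 and 22.2 CPM in DMSO and at 91.6, 93.3 and 83.9 CPM under PdB. No PdB library came near a DMSO library, and the rise was 4.39-fold, a log2 change of 2.14 ± 0.07 (standard error, adjusted p = 1.6e-14, edgeR). MRPL36 (chr5:1798386-1801366), counterpart of the bacterial protein bL36, went from 27.3, 30.7 and 31.7 CPM to 117, 112 and 108 CPM, a change of 1.91 ± 0.07. MRPL50 (chr9:101387633-101398614), a mitochondria-specific protein, went from 21.9, 24.4 and 23.5 CPM to 73.0, 78.4 and 68.2 CPM, a change of 1.65 ± 0.07. Both have a single intron in their principal transcript, and in both every PdB library lies far above every DMSO library.

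Next in order came MRPL55 at 1.38 ± 0.08, MRPL32 at 1.24 ± 0.07 and MRPS28 at 1.05 ± 0.10. MRPL32, counterpart of bacterial bL32, is matured by the m-AAA protease of the inner membrane before it is built into the large subunit. It was read at 30.1, 32.5 and 30.9 CPM in DMSO and at 80.9, 73.1 and 67.3 CPM under PdB. MRPL23 (0.95 ± 0.11) and MRPS35 (0.94 ± 0.07) completed the 8 largest rises. MRPL23, counterpart of bacterial uL23 at the tunnel exit, was read at 7.57, 8.05 and 9.86 CPM in DMSO and at 16.5, 16.6 and 16.1 CPM under PdB.

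MRPL39 fell the most. This large-subunit protein, found only in mitochondria, is encoded at chr21:25585656-25607517 with 9 introns in the principal transcript. It was read at 18.4, 18.7 and 17.7 CPM in DMSO and at 3.31, 2.86 and 3.73 CPM under PdB, a log2 change of -2.47 ± 0.11 (adjusted p = 5.6e-13, edgeR). The groups are far apart, and no PdB library comes near a DMSO library. MRPL2 (chr6:43054029-43059806), the uL2 protein that lies beside the peptidyl transferase centre, went from 43.1, 45.3 and 48.6 CPM to 13.9, 17.0 and 17.6 CPM, a change of -1.50 ± 0.09. MRPL45 (chr17:38297023-38323218), which anchors the ribosome to the inner membrane, went from 37.0, 43.5 and 39.6 CPM to 18.3, 16.7 and 15.6 CPM, a change of -1.25 ± 0.08.

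MRPS31, a small-subunit protein, was read at 14.1, 14.0 and 13.6 CPM in DMSO and at 4.51, 5.38 and 4.09 CPM under PdB, a change of -1.58 ± 0.11. Its value is uncertain, because 4 annotated MRPS31 pseudogenes together held 86.3% as many counts as the gene. Their summed level was 8.66 CPM in DMSO, 11.1 CPM under PdB and 19.8 CPM at recovery, so under PdB it did not move with the gene. For no other member did pseudogenes reach 10% of the parent's counts. The remaining large falls were all of small-subunit genes except MRPS18A: MRPS18A at -1.03 ± 0.08, MRPS25 at -1.02 ± 0.08, MRPS26 at -0.97 ± 0.07 and MRPS16 at -0.97 ± 0.06. MRPS16, counterpart of bacterial bS16, was read at 76.8, 83.0 and 77.8 CPM in DMSO and at 41.3, 39.7 and 40.4 CPM under PdB, with no overlap between the groups.

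**Figure D2:**
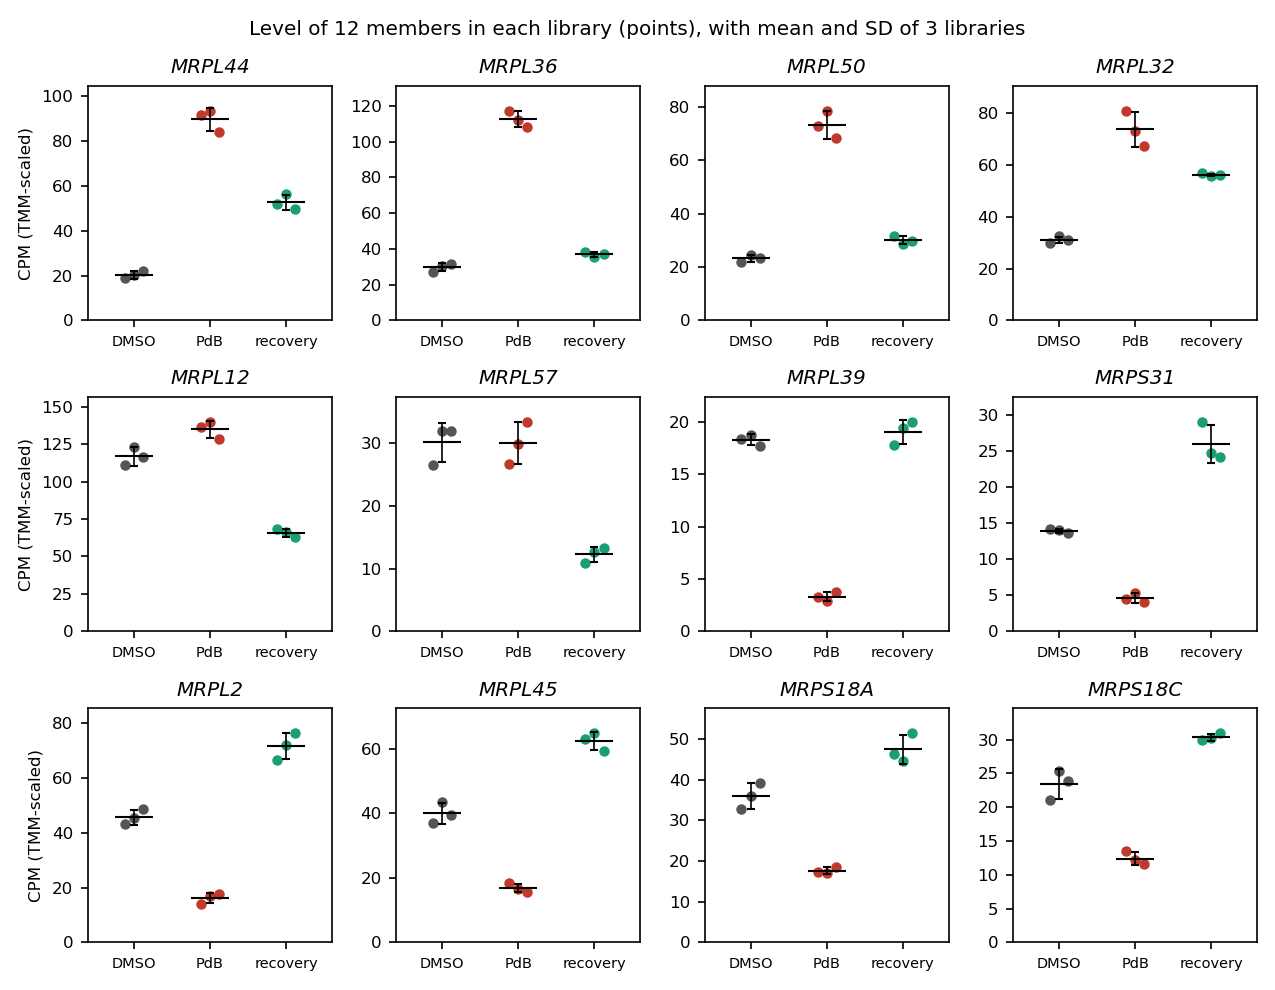
TMM-scaled CPM of 12 members in each of the 9 libraries (points), with the mean and SD of each group of 3, on linear axes from 0. MRPL44, MRPL36, MRPL50 and MRPL32 are highest under PdB, MRPL39, MRPS31, MRPL2, MRPL45, MRPS18A and MRPS18C are lowest under PdB, and MRPL12 and MRPL57 are lowest at recovery.

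Neither subunit moved as a block. Of the 51 large-subunit genes 27 rose and 15 fell under PdB, with a median log2 change of 0.17, and of the 26 small-subunit genes 11 rose and 9 fell, with a median of 0.11. With library totals the counts were 19 and 23 for the large and 9 and 11 for the small subunit. The difference between the subunits was not tested. MRPS36, which belongs to neither, fell by 0.45 ± 0.12 on the log2 scale.

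Of the 3 structural groups of the large subunit that were listed, the stalk was the one in which all members rose. MRPL10, MRPL11, MRPL12, MRPL53 and MRPL54 all rose under PdB, with a median of 0.61, and 3 of the 5 did so with library totals. MRPL10, the base of the stalk, was read at 39.5, 41.8 and 42.3 CPM in DMSO and at 67.9, 69.5 and 71.8 CPM under PdB (0.76 ± 0.06). MRPL54 rose by 0.83 ± 0.08 and MRPL53 by 0.61 ± 0.11. MRPL12, the protein that binds the elongation factors and has been reported to bind mitochondrial RNA polymerase as well, changed far less, by 0.21 ± 0.06, and was not called with library totals (0.01, adjusted p = 0.87). MRPL11 was barely called at 0.16 ± 0.07 (adjusted p = 0.039, edgeR). Its call was lost without DMSO replicate 1, without DMSO replicate 2, without PdB replicate 1 and without each of the 3 recovery libraries (adjusted p = 0.054 to 0.20), and its sign turned with library totals (-0.04).

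Other sites of the large subunit were split. Of 6 genes at the tunnel exit and membrane side, MRPL44, MRPL23 and MRPL24 rose and MRPL39 and MRPL45 fell, while MRPL22 was at -0.02 ± 0.09. With library totals 2 of the 6 rose and 3 fell, MRPL24 then being at -0.02 instead of 0.17. The call of MRPL24 was also lost without any 1 of DMSO replicates 1 and 3 and PdB replicates 1 and 2. Of 6 genes of the central protuberance, the part that faces the small subunit and holds a tRNA in place of the lost 5S RNA, MRPL52 (0.73 ± 0.07), MRPL48 (0.73 ± 0.09) and MRPL40 (0.22 ± 0.09) rose, MRPL38 (-0.75 ± 0.06) and MRPL46 (-0.66 ± 0.11) fell, and MRPL18 was at -0.04 ± 0.06. There, too, library totals gave 2 rises and 3 falls. The call of MRPL40 was marginal (adjusted p = 0.05 after rounding, edgeR), and its PdB and DMSO libraries overlap.

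Among large-subunit genes that were not on these lists, which do not name every protein of a site, MRPL58 fell by 0.86 ± 0.11 on the log2 scale. Its product, also called ICT1, is a peptidyl-tRNA hydrolase that rescues stalled ribosomes and is at the same time a structural subunit. It was read at 23.1, 28.0 and 26.1 CPM in DMSO and 11.6, 15.8 and 15.1 CPM under PdB. MRPL3, counterpart of bacterial uL3, changed by -0.39 ± 0.05 and MRPL37 by -0.28 ± 0.05. MRPL4 rose from 96.9, 99.9 and 99.0 CPM to 179, 174 and 165 CPM (0.81 ± 0.05). MRPS30, which despite its name lies in the large subunit, rose by 0.41 ± 0.06. MRPL41 was at 0.19 ± 0.08 (adjusted p = 0.048, edgeR), a call lost without any 1 library except DMSO replicate 3, PdB replicate 3 and recovery replicate 1 and turned to -0.005 with library totals.

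The 3 human copies of the bacterial S18 protein went different ways. MRPS18A, the large-subunit copy, was read at 32.7, 36.1 and 39.1 CPM in DMSO and at 17.2, 16.9 and 18.5 CPM under PdB. MRPS18C, a small-subunit copy, was read at 21.0, 25.3 and 23.9 CPM and then at 13.5, 12.1 and 11.6 CPM, a fall of 0.92 ± 0.09 on the log2 scale. The remaining small-subunit copy, MRPS18B, was higher under PdB, and was read at 52.2, 53.2 and 58.5 CPM in DMSO and at 58.1, 62.9 and 67.4 CPM under PdB. Its log2 change was 0.20 ± 0.06 (adjusted p = 0.0097, edgeR). The call was lost without DMSO replicate 1 or 2, and the change was 0.006 with library totals. Exons of MRPS18A overlap RSPH9, and those of MRPS18C overlap ABRAXAS1, on the other strand, and the part of those genes' reads in the values was not tested.

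In the small subunit, MRPS2 (0.89 ± 0.06), counterpart of bacterial uS2, rose from 90.2, 101 and 97.9 CPM to 186, 184 and 164 CPM. MRPS12, the uS12 protein of the decoding centre, rose by 0.60 ± 0.07, MRPS34 by 0.51 ± 0.05, MRPS22 by 0.42 ± 0.07 and MRPS7 by 0.21 ± 0.06. The last was at 0.01 with library totals. MRPS14 was not called at 0.13 ± 0.09, although it was with DESeq2 (0.23, adjusted p = 0.025) and with RLE or upper-quartile scaling. MRPS27, a protein with pentatricopeptide repeats, a motif typical of RNA-binding proteins in organelles, fell by 0.95 ± 0.06 and MRPS9 by 0.94 ± 0.08. MRPS27 was read at 100.04, 113 and 99.7 CPM in DMSO and at 50.6, 55.8 and 55.7 CPM under PdB, so the groups do not overlap.

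The mitoribosomal proteins with other names were as mixed as the members. GADD45GIP1 (0.54 ± 0.07) and AURKAIP1 (0.33 ± 0.06) rose under PdB, PTCD3 (-0.98 ± 0.06) and CHCHD1 (-0.39 ± 0.10) fell, and DAP3 was at -0.04 ± 0.05. Genes that build or serve the same ribosome did not share a direction either. Of 30 assembly factors 12 rose and 16 fell (8 and 17 with library totals), with the RNA helicase DDX28 at 1.88 ± 0.09 and the 16S rRNA methyltransferase MRM1 at -2.42 ± 0.18 as extremes. Of 15 translation factors 6 rose and 8 fell. TSFM, the exchange factor of the elongation factor Tu, went from 19.1 ± 0.135 to 64.6 ± 2.50 CPM (SD, n = 3), while its partner TUFM went from 169 ± 7.97 to 190 ± 3.34 CPM. LRPPRC, which stabilises mitochondrial messenger RNA, fell from 227 ± 4.61 to 93.0 ± 5.72 CPM. Of 17 mitochondrial aminoacyl-tRNA synthetases 6 rose and 9 fell.

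The cytosolic ribosome offers a contrast in the same libraries. All 77 cytosolic ribosomal protein genes rose under PdB, with a median log2 change of 0.72 and an interquartile range of 0.30, beside 38 of 78 members, a median of 0.12 and an interquartile range of 0.98. With library totals 75 of the 77 rose. RNA of the mitochondrial genome, the substrate and the RNA core of the mitoribosome, also rose: all 15 mitochondrially encoded genes were called up, with a median of 0.64. The 16S ribosomal RNA MT-RNR2 went from 3526 ± 66.0 to 11150 ± 1207 CPM, and the 12S ribosomal RNA MT-RNR1 from 300.3 ± 14.7 to 817 ± 45.9 CPM. These were libraries of polyadenylated RNA, so the values cover only the mitochondrial RNA that such a preparation takes up. Summed over genes, members went from 3562 ± 154 CPM in DMSO to 4133 ± 93.5 CPM under PdB and 3715 ± 11.8 CPM at recovery. As a plain share of all counts, without scaling, they held 0.367% ± 0.0148, 0.371% ± 0.00315 and 0.402% ± 0.00228.

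**Figure D3:**
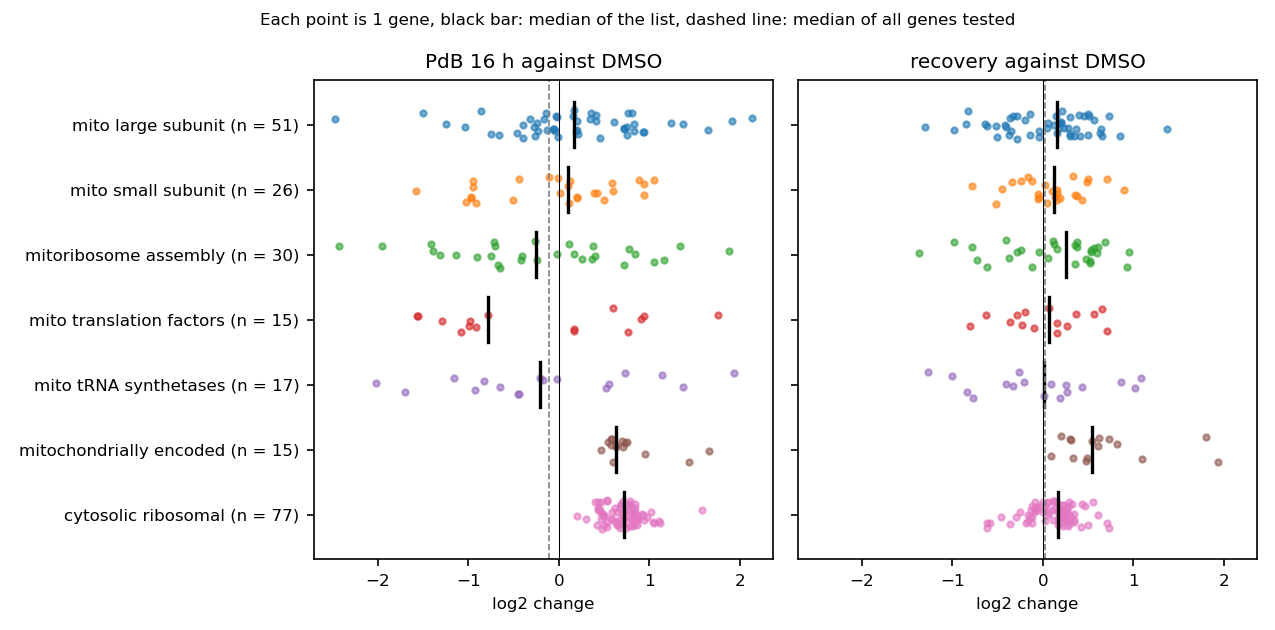
Log2 change against DMSO of each gene (points) in 7 lists, after 16 h of PdB and at recovery, with the median of each list as a black bar and the median of all genes tested as a dashed line. Under PdB mitoribosomal genes of both subunits spread from below -1 to above 1, while all 77 cytosolic ribosomal and all 15 mitochondrially encoded genes lie above 0.

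Regulators of nuclear genes for mitochondria, which include the factors whose motifs were searched, changed strongly at the RNA level. Of 11 such genes 9 rose and 2 fell under PdB. NRF1 went from 24.3 ± 1.92 to 83.6 ± 3.85 CPM and then to 16.1 ± 1.50 CPM at recovery. GABPA, the DNA-binding subunit of GABP, went from 22.8 ± 1.39 to 52.7 ± 4.51 and 48.3 ± 4.60 CPM. The coactivator PPARGC1B went from 7.80 ± 0.367 to 55.3 ± 2.18 and 8.61 ± 0.516 CPM. GABPB2 (-2.21 ± 0.10), a partner subunit of GABP, and the nuclear receptor ESRRA (-1.41 ± 0.09) fell. A link between these levels and those of the members was not tested.

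At 24 h of recovery the members lay closer to DMSO, yet most were still called. Against DMSO 37 members were up and 25 down, where 61.2% of all genes were called, 30.7% up and 30.5% down. The median was 0.14 beside 0.03 over all genes, and 0.07 without DMSO replicate 1. The interquartile range was 0.65, where that of all genes was 1.28, and MRPL44 and MRPL57 were the 2 members still at least 2-fold from DMSO, against 25.4% of all genes. In 66 of 78 members the groups did not overlap, against 70.4% of all genes. Large-subunit genes were up in 25 cases and down in 18, and small-subunit genes in 12 and 6 (14 and 4 with upper-quartile scaling).

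MRPL44 had the largest rise from DMSO at recovery too, with a log2 change of 1.37 ± 0.07. Its recovery libraries, at 51.7, 56.3 and 49.7 CPM, were each well above its highest DMSO library. MRPS31 followed at 0.90 ± 0.10 with the reservation about its pseudogenes, then MRPL32 at 0.85 ± 0.07, MRPL10 at 0.73 ± 0.06 and MRPS35 at 0.71 ± 0.07. MRPL2, MRPL45 and MRPL30 were the other 3 of the 8 largest. MRPL2 stood at 66.7, 71.9 and 76.4 CPM and MRPL45 at 63.1, 64.9 and 59.4 CPM, in both cases above every DMSO library after having been below every one of them under PdB. MRPL30, not called under PdB at 30.1, 30.8 and 30.8 CPM, stood at 49.7, 49.5 and 45.8 CPM against 31.7, 31.1 and 30.7 CPM in DMSO, a late rise of 0.63 ± 0.06. With library totals MRPL30 was called down under PdB (-0.23, adjusted p = 0.0045, edgeR).

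MRPL57 had the largest fall from DMSO at recovery. This small large-subunit protein is encoded at chr13:21176645-21179084. It was read at 26.5, 31.9 and 31.9 CPM in DMSO, at 26.6, 29.8 and 33.3 CPM under PdB and at 10.9, 12.6 and 13.2 CPM at recovery. The PdB libraries overlap those of DMSO and the recovery libraries lie far below them, a log2 change of -1.30 ± 0.10 (adjusted p = 3.5e-09, edgeR) after -0.01 ± 0.10 under PdB. MRPL24 (-0.98 ± 0.06), MRPL42 (-0.85 ± 0.07), MRPL12 (-0.82 ± 0.06), MRPS27 (-0.78 ± 0.06), MRPL11 (-0.63 ± 0.07), MRPL28 (-0.62 ± 0.07) and MRPS16 (-0.51 ± 0.06) followed. MRPL12 was read at 111, 123 and 116 CPM in DMSO, 136, 140 and 128 CPM under PdB and 68.5, 66.2 and 63.2 CPM at recovery. Its recovery libraries thus sit well below both other groups, and the same holds for MRPL24, which fell from 68.5, 77.8 and 69.6 CPM to 37.3, 35.9 and 36.4 CPM.

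The stalk genes, all called up under PdB, were on both sides of DMSO by then. MRPL10 and MRPL54 were still above DMSO, and MRPL11, MRPL12 and MRPL53 were below it. MRPL10 stood at 65.6, 69.2 and 70.7 CPM, level with its PdB libraries, while MRPL53 stood at 11.1, 14.3 and 14.8 CPM against 17.1, 20.3 and 20.1 CPM in DMSO (-0.51 ± 0.11). The S18 copies, by contrast, were all above DMSO, at 0.40 ± 0.08 for MRPS18A, 0.34 ± 0.06 for MRPS18B and 0.37 ± 0.09 for MRPS18C. Weak calls at recovery among the named members were those of MRPS2, MRPS7, MRPL23 and MRPS26. Members outside the named set, such as MRPL34 (0.18, adjusted p = 0.045, edgeR), were not checked one by one with libraries left out. The call of MRPS2 (0.14, adjusted p = 0.045, edgeR) was lost without any 1 of DMSO replicates 1 and 3, PdB replicate 2 and all 3 recovery libraries. That of MRPS7 (-0.16) was lost without DMSO replicate 2 or 3 or recovery replicate 2. That of MRPL23 (-0.33) was lost without DMSO replicate 3 or recovery replicate 1 or 2, and that of MRPS26 (-0.24) without DMSO replicate 3. The calls of MRPS7, MRPL23 and MRPS26 were also lost with library totals and with upper-quartile scaling, and that of MRPS7 with DESeq2 and RLE scaling.

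Of the mitoribosomal proteins with other names, 4 of 5 were below DMSO at recovery (1 up and 2 down with library totals), from AURKAIP1 at -0.46 ± 0.06 to PTCD3 at -0.14 ± 0.05, and GADD45GIP1 was at 0.12 ± 0.07. Of the 30 assembly factors 16 were up and 8 down, with GTPBP10 at 0.95 ± 0.07 and the small-subunit assembly factor RBFA at -1.37 ± 0.13. LRPPRC remained down at 130 ± 3.81 CPM and TSFM remained up at 30.0 ± 1.04 CPM. The cytosolic ribosomal protein genes were up in 42 and down in 10 of 77 cases, and 13 of 15 mitochondrially encoded genes were up and none down, with MT-RNR2 at 12336 ± 141 CPM.

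From PdB to recovery members again went in both directions. Against PdB 27 rose and 39 fell, where 66.1% of all genes were called, 34.6% up and 31.5% down. The median was -0.17 beside 0.06 over all genes, and -0.11 without PdB replicate 2. With library totals 35 rose and 24 fell, the members' median was 0.10 and that of all genes 0.33. A change of at least 2-fold was seen in 17 members, 7 up and 10 down, against 32.9% of all genes, and the groups did not overlap in 71 members, against 70.5% of all genes. Large-subunit genes rose in 17 and fell in 28 cases (20 and 20 with library totals), and small-subunit genes in 10 and 11 (14 and 4 with library totals).

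The rises were led by genes that had been lowest under PdB. MRPL39 went from 3.31, 2.86 and 3.73 CPM to 17.8, 19.4 and 20.0 CPM, a log2 change of 2.53 ± 0.11, and was then level with DMSO (0.06 ± 0.10). MRPS31 (2.48 ± 0.11), MRPL2 (2.15 ± 0.09), MRPL45 (1.89 ± 0.08), MRPS18A (1.43 ± 0.08), MRPS18C (1.29 ± 0.09), MRPL46 (1.07 ± 0.11) and MRPL38 (0.98 ± 0.06) followed. The falls were led by MRPL36, from 117, 112 and 108 CPM to 38.2, 35.5 and 37.0 CPM (-1.61 ± 0.07). MRPL57 (-1.29 ± 0.10), MRPL50 (-1.29 ± 0.07), MRPL23 (-1.28 ± 0.11), MRPL20 (-1.17 ± 0.07), MRPL24 (-1.15 ± 0.07), MRPL53 (-1.12 ± 0.11) and MRPL42 (-1.06 ± 0.07) came next. This comparison shares its PdB libraries with the first and its recovery libraries with the second, so the values are set side by side and are not independent. Smaller calls here were those of MRPS35 (-0.23), MRPS12 (-0.17), MRPL28 (-0.16) and MRPS27 (0.17). MRPS35 lost its call without recovery replicate 3, MRPS27 without PdB replicate 1 or recovery replicate 1 and with DESeq2, RLE or upper-quartile scaling, MRPS12 without any 1 of DMSO replicate 2, PdB replicate 2 and the 3 recovery libraries, and MRPL28 without any 1 of DMSO replicates 2 and 3, the PdB replicates 2 and 3 and recovery replicates 1 and 2. MRPS35, MRPS12 and MRPL28 turned sign with library totals.

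The 3 sets of calls place the members in courses, given here with the share of all genes tested in the same course. The 12 that returned were called under PdB and not at recovery against DMSO, with a called change back (16.5% of all genes): 5 had risen, such as MRPL4 and MRPS28, and 7 had fallen, such as MRPL39, MRPL58 and MRPS9. The 20 that came part-way back were still called on the same side at recovery with a called change back (18.8% of all genes), 16 of them up, among them MRPL44, MRPL36, MRPL50, MRPL55 and MRPL32, and 4 down: MRPS16, MRPS25, MRPS26 and MRPS27. The 8 that held did not move back by the test (20.1% of all genes), 4 up (MRPL10, MRPS18B, MRPS23, MRPS30) and 4 down (MRPL17, MRPL19, MRPL28, MRPS36). This class does not mean staying at the PdB level. MRPL17 (-0.24) and MRPL28 (-0.16) were called further down from PdB to recovery, and both changes turned sign with library totals. The 22 that overshot, 28.2% of members where 11.4% of all genes did so, were called on the other side of DMSO at recovery. Of these 12 had risen first, such as MRPL12, MRPL24, MRPL42 and MRPL20, and 10 had fallen first, such as MRPS31, MRPL2, MRPL45, MRPS18A and MRPS18C. The first call of MRPL42 (0.20 ± 0.07) was lost without DMSO replicate 3, without PdB replicate 2 and with library totals. The first calls of MRPL11, MRPL12, MRPL24, MRPL41 and MRPS7, which also overshot, were lost with library totals too. A further 12 were not called under PdB and were called at recovery against DMSO (11.0% of all genes), 7 up and 5 down, with MRPL30 and MRPL57 as the ends of their range. MRPL40 was called under PdB and in neither other comparison (3.44% of all genes), and MRPL14, MRPS11 and MRPS14 were called in neither comparison with DMSO (18.9% of all genes). The classes rest on scaling and thresholds. With library totals 15 members held and 21 overshot, not all of them the same members as before. At an FDR of 0.01 the number that overshot was 14. The share of all genes at that FDR was not computed. To overshoot, a gene needs 2 opposite calls, and all genes tested include weaker genes than the members, which are harder to call. Shares among genes with counts like those of the members were not computed.

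**Figure D4:**
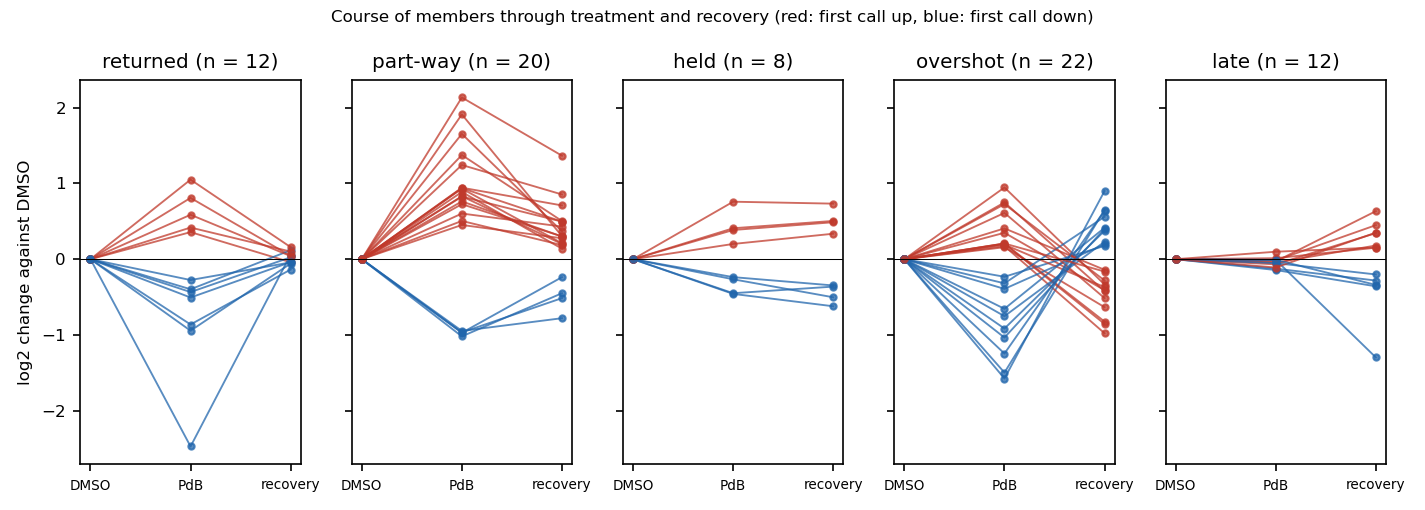
Log2 change against DMSO of the members in each of 5 courses through PdB and recovery, each line 1 gene, red where the first call was up and blue where it was down. In the class that overshot (n = 22) the lines cross 0 between PdB and recovery, and in the late class (n = 12) MRPL57 reaches -1.30.

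Gene structure was compared because PdB acts on splicing. Counts per gene include reads from spliced and unspliced RNA and so do not measure splicing. Across members, Spearman's rho between the introns of the longest annotated transcript and the log2 change under PdB was -0.26 (n = 78 genes, which share their libraries), beside -0.32 over 14226 protein-coding genes. For 23 members the longest annotated transcript and the principal coding one differ in introns (MRPS18C has 1 and 5, MRPS27 has 3 and 10). With the principal transcript, a measure added after the data were seen, rho was -0.41 in members and -0.34 over 13994 protein-coding genes. From PdB to recovery the values with the longest transcript were 0.28 in members and 0.21 over all, and for recovery against DMSO 0.03 and -0.18. With the principal transcript they were 0.44 in members and 0.21 over all from PdB to recovery, and 0.01 and -0.20 for recovery against DMSO.

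Classes were counted by introns of the principal transcript, the measure added after the data were seen, and not by those of the longest. Of 22 members with up to 2 introns 13 rose under PdB and 3 fell, with a median of 0.46. The 24 members with 3 to 4 introns had 18 rises and 5 falls and a median of 0.37. Of the 19 with 5 to 6 introns 3 rose and 10 fell (median -0.24), and of the 13 with at least 7 introns 4 rose and 7 fell (median -0.39). Medians over all protein-coding genes of the same classes were 0.43, 0.23, 0.003 and -0.55. Of those genes 50.4%, 46.9%, 39.2% and 22.8% rose and 23.9%, 30.0%, 38.9% and 58.4% fell, in the same order. Members with many introns that rose all the same included MRPS35 with 7 and MRPL4 with 8, and those with few that fell included MRPS16 with 2.

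**Figure D5:**
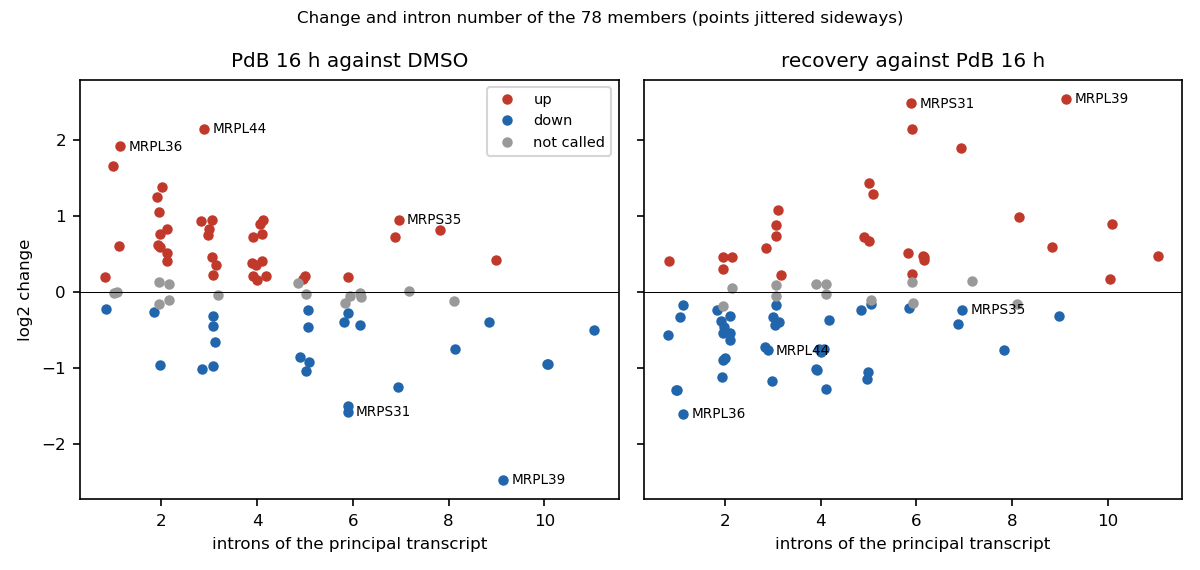
Log2 change of each of the 78 members against the number of introns in its principal coding transcript, under PdB (left) and from PdB to recovery (right), coloured by call. Under PdB most members with up to 4 introns lie above 0 and most with 5 or more lie below it, with MRPL36 (1 intron) and MRPL39 (9 introns) near the ends.

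Many members share their start region with a neighbour on the other strand. In GENCODE 29, 22 pairs of a member and another protein-coding gene (MRPL46 and MRPS11 being a pair of members) start within 500 bases of each other on opposite strands, and both genes were tested in 21. Under PdB both partners were called in 13 pairs, 6 in the same and 7 in opposite directions. At recovery against DMSO both were called in 14 pairs, of which 13 went the same way and 1 the opposite way. From PdB to recovery 9 went the same and 9 opposite ways. Over all such pairs of protein-coding genes, 877 of them tested, the share in the same direction was 55.5%, 61.4% and 54.9% in these comparisons.

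Pairs that moved together included MRPL36 and NDUFS6, a complex I subunit whose start lies 34 bases away, which went from 65.3 ± 4.76 CPM in DMSO to 137 ± 1.87 under PdB and 92.4 ± 3.88 at recovery. MRPL43 and TWNK, the mitochondrial DNA helicase, with starts 148 bases apart, both rose, by 0.76 ± 0.05 and 2.56 ± 0.07. Exons of MRPL43 overlap those of TWNK and SEMA4G on the other strand over 1319 of 3573 bases, and exons of MRPL51 overlap those of its partner NCAPD2 over 486 of 1551 bases, and the part of shared reads in these values was not tested. MRPL32 and the proteasome gene PSMA2 start 23 bases apart and rose by 1.24 ± 0.07 and 0.71 ± 0.05. Pairs that moved apart under PdB included MRPL27 (0.83 ± 0.07) and the endonuclease subunit EME1 (-1.20 ± 0.13), 6 bases apart, and MRPS18C (-0.92 ± 0.09) and the helicase HELQ (0.65 ± 0.11), 76 bases apart. MRPL51 rose by 0.41 ± 0.05 beside the condensin gene NCAPD2, which fell from 410 ± 16.2 to 98.7 ± 5.13 CPM. MRPL27 and EME1 were the pair in opposite directions at recovery (0.50 ± 0.07 and -0.39 ± 0.12).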

How the data were processed

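RNA was measured in 9 libraries of polyadenylated RNA in 3 groups of 3. The authors deposited whole-number read counts per gene, not normalised. The submitters' processing notes name featureCounts 2.0.3, STAR 2.7.9a, fastp 0.23.2, DESeq2 1.30.0 and Picard on hg38, while settings, annotation and strand use are not given in the sources used. Of 60708 identifiers 60507 had a symbol and 58396 matched GENCODE 29, from which coordinates and introns were taken. A principal transcript is the best-ranked APPRIS coding transcript. Promoters were RefSeq windows.

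Counts were filtered with filterByExpr, scaled by TMM and tested two-sided with edgeR 4.0.16 (R 4.3.3) by the quasi-likelihood test over all 9 libraries, with Benjamini-Hochberg adjustment at 0.05 over 20812 genes. The standard error is the log2 change divided by the root of F. The common biological coefficient of variation was 0.111. No library pair within a group agreed within counting noise (chi-square per degree of freedom 5.02 to 26.7). Named genes were the 8 largest called rises and falls per comparison with a mean of at least 100 counts and no overlap, the extremes per kilobase, and a fixed set, plus the extremes of each list and genes chosen after their values were seen in the passages on courses, pairs and introns. The lists named in the text and the members were chosen with earlier results of these data known. DESeq2 1.42.0, scaling by RLE, by upper quartiles or by library totals, a filter at a mean of 50 counts or none, an FDR of 0.01, a fit of only 6 libraries, a replicate block and each library left out were tried as alternatives. Scripts were tested on simulated data.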

Additional observations from a re-analysis of the deposited data

How the results depend on the processing

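Median log2 changes of the members moved most with scaling. Under PdB the median of 0.121 became 0.217 with RLE factors and with DESeq2, 0.271 with upper-quartile factors, 0.244 with a mean of at least 50 counts and -0.076 with library totals. At recovery against DMSO the 0.142 became 0.213 with library totals and 0.219 with upper-quartile factors. From PdB to recovery the -0.168 became -0.241 with upper-quartile factors, -0.252 with a mean of at least 50 counts and 0.0997 with library totals. The median over all genes tested moved with scaling too. Under PdB it was -0.110 with TMM, -0.0137 with RLE, 0.0385 for upper quartiles and -0.306 for plain totals. The members' median lay above it under each of these scalings. From PdB to recovery the median over all genes was 0.0620 with TMM and 0.328 for plain totals, and the members' median lay below it both times. The cause of the shifts was not tested. Library totals also moved the members down from PdB to recovery from 39 to 24 and those that held from 8 to 15. An FDR of 0.01 moved those that overshot from 22 to 14. Introns of the principal transcript in place of the longest moved rho from -0.261 to -0.408 under PdB, from 0.0305 to 0.0137 at recovery against DMSO and from 0.280 to 0.436 between them. Among called members, library totals turned the sign of MRPL11 (-0.039), MRPL24 (-0.025) and MRPL41 (-0.0046) under PdB and of MRPL13 (0.0532), MRPL17 (0.0311), MRPL28 (0.104), MRPL35 (0.0926), MRPS11 (0.0314), MRPS12 (0.0958) and MRPS35 (0.035) from PdB to recovery, where MRPL10, not called before, was at 0.242.

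Leaving out 1 library at a time gave 33 to 38 rises, 25 to 27 falls and a median of 0.101 to 0.136 under PdB, 32 to 37, 20 to 25 and 0.0745 to 0.152 at recovery against DMSO, and 26 to 28, 34 to 40 and -0.193 to -0.108 from PdB to recovery. The classes then held 12 to 18 (returned), 16 to 20 (part-way), 7 to 12 (held), 17 to 22 (overshot) and 9 to 15 members (late). The lowest median at recovery was that without DMSO replicate 1 and the smallest fall from PdB that without PdB replicate 2. Deviations of same-numbered libraries of different groups were weakly correlated (r from -0.00323 to 0.048). Such values cannot tell whether same-numbered libraries were handled together. With the replicate number as a block, 38 members rose and 27 fell under PdB, 38 and 25 at recovery against DMSO and 29 and 40 from PdB to recovery, and of 126 values of named members 125 kept their call and direction while MRPS18B from PdB to recovery gained a call (0.137, adjusted p = 0.035, edgeR). Members had a mean of at least 634 counts each, and the 15 not called under PdB had log2 changes between -0.16 and 0.13.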
